A study of Pimephales promelas with 15 samples.

Results

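The 100 transcripts described here are those that differed most from one male fathead minnow liver to the next. They were chosen by their own measured spread. Of the 15208 non-control probes on the array, 11288 were well above background on at least 3 of 13 arrays, the 200 brightest in control livers were left out, and the 100 with the largest standard deviation (SD) over the 13 arrays were taken from the remaining 11088. Values are log2 of the processed Cy3 signal minus the 75th percentile of the same array, so that 0 marks a bright probe and a step of 1 is a doubling.

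Fathead minnow (Pimephales promelas) is a small North American freshwater fish that is widely kept for toxicity tests. Mature males from a common tank were kept for 48 h, unfed, in tanks of 40 L that were filled with 25 L and held 4 fish each, with 4 tanks to a water. The waters were stormwater taken from a lake, streamwater taken downstream of a sewage works, wastewater (the effluent of such a works, used for irrigation) and, as the control, tap water that had been dechlorinated and passed over carbon. Each array held the liver RNA of 1 fish, and the labels do not say which tank it came from, so p-values measure the spread between fish, some of which may have shared a tank.

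Arrays of stormwater replicate 2 and streamwater replicate 4 were set aside by the rule, as livers that stood apart. In stormwater liver 2, 34 members lay outside the range of the 13, against 38.8% of all probes tested, and in streamwater liver 4, 25 did, against 44.2%. The members were chosen for a wide spread over the 13, which favours values within their range. This left 3 stormwater, 3 streamwater, 4 wastewater and 3 control livers, numbered below by their replicate. The arrays lay on 2 slides, each of which held livers of all 4 waters, and over the 13 arrays the 75th percentile ran between 1393 and 2697 intensity units. Precision is limited by how few arrays each water has.

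The liver of a fish makes most plasma proteins, handles lipids and bile, and converts foreign chemicals so that they can be excreted. In females it also makes the yolk precursor vitellogenin under the control of estrogen, and in males that programme is normally silent. A piece of liver holds hepatocytes together with blood, vessel, bile duct and immune cells, and may carry traces of pancreas. On an array of such tissue, fewer cells of a type and less RNA per cell cannot be told apart. None of the 100 probes is paired with a gene name in the sources used here, so the transcripts are given by probe identifier and by the name of the sequence that the probe was designed on. For the same reason the liver label could not be checked against liver markers, and blood, immune, pancreas and testis markers could not be read.

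The members spread far more widely than the typical probe of this array. Their SD ran between 2.12 and 5.96 with a median of 2.58, against a median of 0.563 over all 11288 probes tested. The brightest liver exceeded the dimmest by 39.6- to 18300-fold within a member, with a median of 299-fold, where in 80 members the dimmest liver was not well above background and the fold depends on that background. These values chose the set and are given as a description. At the limit, UF_Ppr_AF_113046, UF_Ppr_AF_113849 and UF_Ppr_AF_109697 were just inside with SDs of 2.14, 2.14 and 2.12, and UF_Ppr_AF_106169, UF_Ppr_AF_110530 and UF_Ppr_AF_118843 were just outside with 2.12, 2.11 and 2.11. Many members were bright in some livers and not well above background in others. Of the 100, 20 were well above background on all 13 arrays, and 24 on at most 6. Over all 11288 probes tested, 7448 were well above background on all 13. The median number of such arrays was 10 over the members, against 13 over all probes tested, and the lower quartile was 7 against 11. None of the members' 1300 spots was saturated, and 6 carried a flag for a non-uniform spot. In 5 of these 6 the flagged spot was the brightest liver of its member, and 5 members would not have been chosen with flagged spots missing. They are UF_Ppr_AF_115664, UF_Ppr_AF_101902, UF_Ppr_AF_104645, UF_Ppr_AF_109915 and UF_Ppr_AF_109697.

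Most of the members' spread lay between livers of the same water, which this design favours even where water has no effect. The share of a probe's sum of squares (its squared deviations from its mean over the 13 livers) that lay between waters had a median of 17.6% over the members, against 23.4% over all probes tested. The share between the 2 slides had a median of 3.21% over the members, against 10.9% over all probes tested. Means of few livers differ by chance, which alone gives some share between waters and between slides. No share was compared with its level under chance. The medians therefore set the members beside all probes and do not show an effect of water or slide in either. A single liver carried over 50% of the sum of squares in 17 members. One far liver makes a large SD and the share over all probes was not computed, so this count only describes the set.

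**Figure D1:**
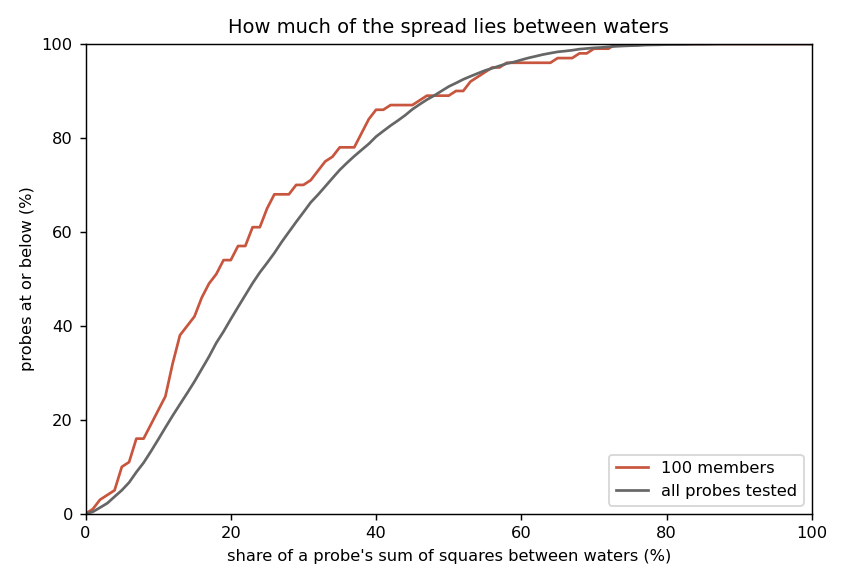
Cumulative percentage of probes (vertical axis) whose share of the sum of squares between waters is at or below the value on the horizontal axis (%), for the 100 members and for all 11288 probes tested, over 13 livers. The line of the members lies above the other over most of the range, with medians of 17.6% and 23.4%.

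Every liver had members far above and members far below their usual level. A large SD favours such distances, so the counts here describe the set and have no share over all probes beside them. Wastewater liver 2 stood out on the high side, with 38 members more than 4-fold above their median over the 13 arrays, and it was the highest liver for 26 members. Of the 38, 15 belonged to co-varying group A and 9 to group B, described below, so they are not separate observations. Wastewater liver 4 and control liver 1 had the most members more than 4-fold below their median, at 35 and 32. Over the 13 livers the number above ran between 7 (control liver 1) and 38, and the number below between 9 (stormwater liver 4) and 35. Wastewater livers 1, 3 and 4 had 14, 23 and 14 members above. The 23 of wastewater liver 3 was the next highest count of the 13 livers, while livers 1 and 4 did not share the excess.

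**Figure D2:**
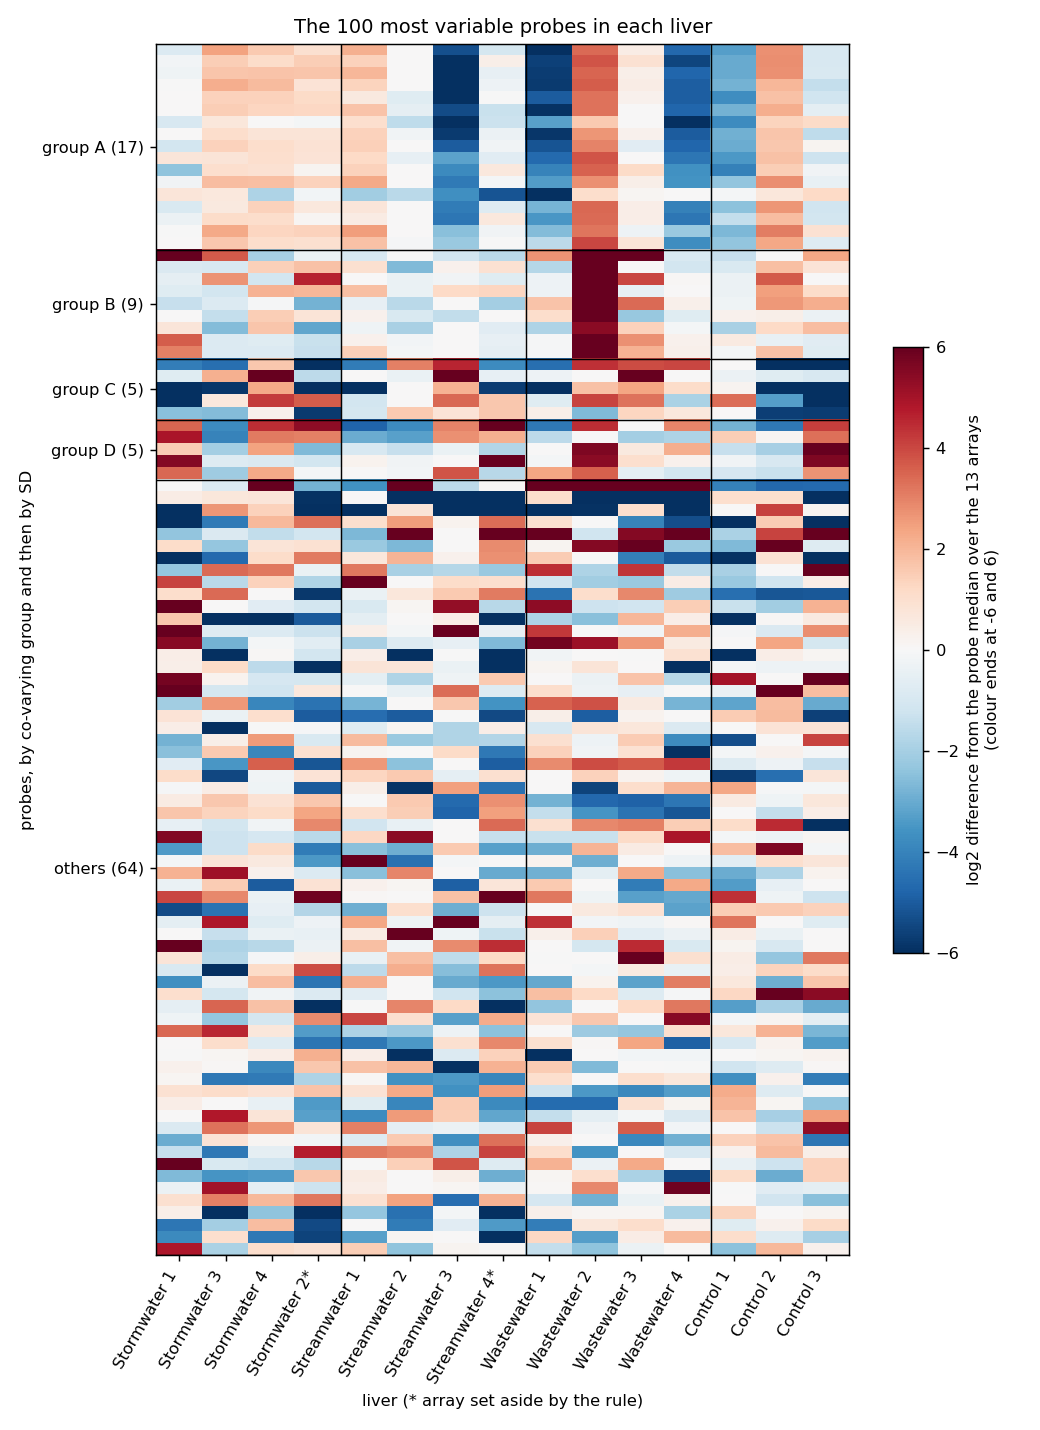
Level of the 100 members (rows, ordered by co-varying group and then by SD) in each of the 15 livers (columns), as the log2 difference from the probe's median over the 13 arrays, with red for higher and blue for lower. Columns within a water differ as visibly as columns of different waters, group A is blue in streamwater 3, wastewater 1 and 4 and, less deeply, control 1, and group B is red in wastewater 2.

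Of the 100 members, 36 fell into 4 groups that varied together over the 13 livers. The groups were formed by average linkage on 1 minus Pearson's r, joined below 0.5, with at least 5 members. They are called A (17 members), B (9), C (5) and D (5). The other 64 comprised 20 sets of 2 to 4 members, which held 54, and 10 that joined none. Correlations among members are descriptions over 13 arrays, since probes on an array share its RNA, labelling and scaling.

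Group A was the largest and the most coherent. Its 17 members had pairwise correlations with a median of 0.942, and the lowest, 0.342, involved UF_Ppr_AF_116781, which followed the group weakly (r = 0.586 to the group mean). The mean level of the group was 0.99, 2.72 and 2.36 in stormwater livers 1, 3 and 4, and 2.58, 1.02 and -3.51 in streamwater livers 1, 2 and 3. It was -3.31, 4.46, 1.61 and -2.88 in wastewater livers 1 to 4, and -1.45, 3.41 and 0.79 in control livers 1 to 3. Livers with a high and with a low mean occurred in wastewater, streamwater and control water alike, while the 3 stormwater livers were all above 0. The share of the sum of squares between waters had a median of 11.4% over the 17 members.

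UF_Ppr_AF_108171, on contig FJU.429.C1, was the member most like the mean of group A. It stood at 3.96, 5.59 and 5.20 in stormwater livers 1, 3 and 4, at 5.48, 4.11 and -2.10 in streamwater livers, at -1.51, 7.87, 5.01 and -1.40 in wastewater livers 1 to 4, and at 1.11, 6.91 and 3.14 in control livers. It was well above background in all 13, and its highest liver, wastewater liver 2, exceeded its lowest, streamwater liver 3, by 999-fold. The 4 waters overlapped.

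UF_Ppr_AF_116990 (FJU.727.C3) and UF_Ppr_AF_114303 (FJU.682.C1) were the next most like the mean. UF_Ppr_AF_116990 lay between 3.41 and 4.88 in the 3 stormwater livers, between -1.96 and 5.12 in streamwater livers, between -2.54 and 6.68 in wastewater livers and between 0.60 and 5.59 in controls. UF_Ppr_AF_114303 ran between -4.26 in streamwater liver 3 and 5.78 in wastewater liver 2. UF_Ppr_AF_106317 (FJU_SB_30.122.C1) had the largest SD of the group, 3.33, and it stood at 5.12 in wastewater liver 2 and at -4.92, not well above background, in wastewater liver 1. Both livers were of the same water and on the same slide.

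Few probes outside the set followed group A. Of the 11288 probes tested, 18 correlated above 0.9 with its mean, of which 16 belonged to the group. The other 2 were UF_Ppr_AF_110919 (r = 0.955, SD 1.87) and UF_Ppr_AF_105101 (r = 0.919, SD 1.44), which fell short of the SD limit. No probe had a correlation below -0.9. The 2 arrays set aside, which took no part in the choice, had group means of 2.16 in stormwater liver 2 and 0.71 in streamwater liver 4. All 17 members were well above background on both, and all lay within the range of the 13. That range is wide by the choice of members, so lying within it is no independent check. Of the sequences in group A, 16 were contigs and 1 had a numbered sequence name. Each contig had another number, so none of the 17 shared a contig with another.

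**Figure D3:**
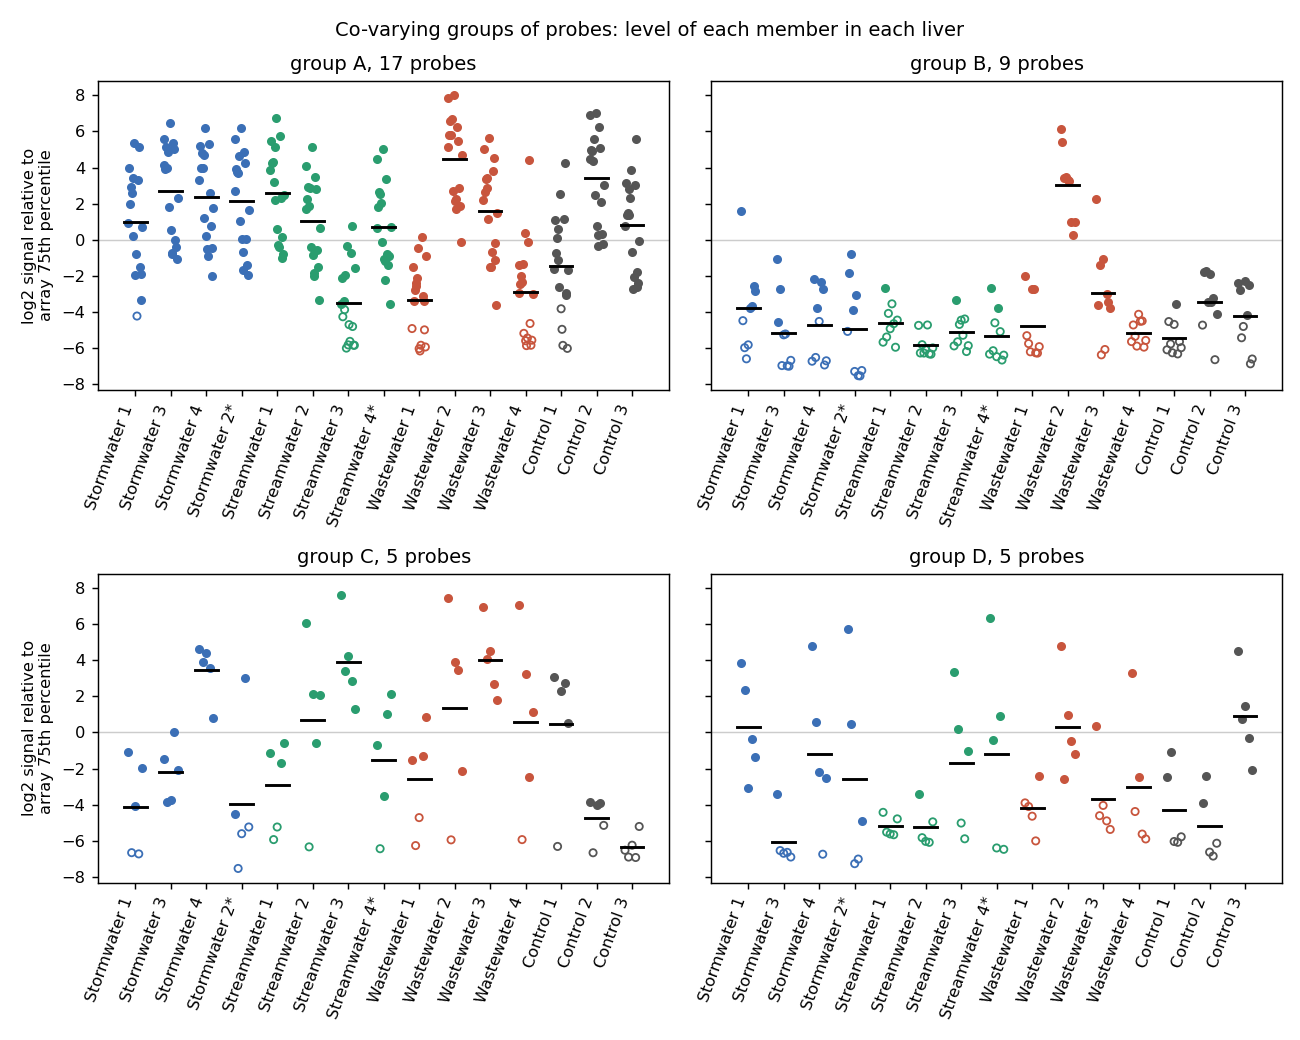
Level of each member of groups A to D (points, log2 signal relative to the array's 75th percentile) in each of the 15 livers (horizontal axis, an asterisk marks arrays set aside), with bars for group means, filled points for well above background and open points for not. Group A spans from -3.31 to 4.46 in the mean within wastewater alone, and group B is high in wastewater 2 with a mean of 3.03.

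Group B was high in 1 liver. Its 9 members averaged 3.03 in wastewater liver 2, where all 9 were well above background. In the other 12 livers the mean lay between -5.84 (streamwater liver 2) and -2.95 (wastewater liver 3), and at most 7 of 9 were well above background. Wastewater livers 1 and 4 had means of -4.80 and -5.14. In 3 of the 9 members (UF_Ppr_AF_115664, UF_Ppr_AF_101902 and UF_Ppr_AF_109915) the spot of wastewater liver 2 was flagged as non-uniform. The 6 without a flag averaged 2.52 there (0.26 to 6.16), against means of -5.88 to -1.75 in the other 12 livers.

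UF_Ppr_AF_115664 (FJU.1538.C2) was closest to the mean of group B, at 5.42 on its flagged spot in wastewater liver 2. It lay between -5.31 and -3.60 in the 3 other wastewater livers, between -4.55 and -2.15 in stormwater livers, between -6.27 and -2.66 in streamwater livers and between -4.53 and -1.79 in controls. UF_Ppr_AF_108485 (FJU.258.C1), of largest SD, was less confined to it. It stood at 6.16 in wastewater liver 2, 2.25 in wastewater liver 3 and 1.58 in stormwater liver 1, and was not well above background in 7 livers. UF_Ppr_AF_104284 stood at 3.32 and UF_Ppr_AF_113849 at 0.96 in wastewater liver 2. The members of group B correlated among themselves with a median r of 0.72, and 10 probes outside the set correlated above 0.9 with its mean and 10 below -0.9. One liver sets such a correlation. The 2 arrays set aside had group means of -4.92 and -5.35.

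Group C crossed the waters. Its mean was 3.47 in stormwater liver 4, 3.88 in streamwater liver 3 and 4.00 in wastewater liver 3, where all 5 members were well above background. It was -4.11 in stormwater liver 1, and -4.71 and -6.36 in control livers 2 and 3. Control liver 1 had 0.45. Of its 5 members, 3 were on sequences of the FJU_SB kind, which 7 of the 100 members and 4.26% of all probes tested carried.

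UF_Ppr_AF_102443 (FJU_SB_30.22.C1) was the member most like the mean of group C. It stood at -4.07, -3.72 and 4.40 in stormwater livers 1, 3 and 4, at -5.24, 2.14 and 4.21 in streamwater livers, at -4.72, 3.90, 4.49 and 3.23 in wastewater livers and at 2.28, -3.99 and -6.24 in control livers. No liver lay between -3.72 and 2.14. UF_Ppr_AF_101592 (FJU_SB_30.28.C1), of the second largest SD among all members, belonged to the same group, whose pairwise correlations ran between 0.468 and 0.948, and is given with the probes of largest SD. UF_Ppr_AF_111524 lay between -6.93 in control liver 3 and 3.59 in stormwater liver 4.

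Group D was highest in 1 control liver and in livers of 2 effluents. Its mean was 0.28 in stormwater liver 1, 0.31 in wastewater liver 2 and 0.88 in control liver 3, where all 5 members were well above background. In stormwater liver 4, with a mean of -1.21, 4 members were more than 4-fold above their median over the 13 arrays. In streamwater liver 3, with a mean of -1.68, 3 were. The lowest mean was -6.04 in stormwater liver 3, followed by -5.26 and -5.20 in streamwater livers 2 and 1 and -5.19 in control liver 2. UF_Ppr_AF_113872 (FJU.1958.C5) was the most like the mean, UF_Ppr_AF_113437 was at 1.48 in control liver 3 and 0.96 in wastewater liver 2, and UF_Ppr_AF_113046 ran between -6.90 and -1.03. The group means correlated at 0.54 between A and B and at 0.46 between B and D, and at -0.18 to 0.09 in the other pairs.

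UF_Ppr_AF_113872 shares the contig stem FJU.1958 with UF_Ppr_AF_109272, another member. Over the 13 livers they correlated at -0.31. The stem FJU.592 is carried by UF_Ppr_AF_110866 and UF_Ppr_AF_116781, at r = -0.12. In these 2 pairs, probes to sequences of 1 stem thus ranked among the most variable without varying together. Of the 5 tested probes with the stem FJU.1958, 2 were members, and the others were not compared. UF_Ppr_AF_109272 did vary with UF_Ppr_AF_103241 (FJU.3110.C1), a member named after its values were seen, at r = 0.98. Of the 100 members 84 were on contigs, 15 on numbered sequences and 1 on another kind, against 82.0%, 17.7% and 0.283% over all probes tested.

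UF_Ppr_AF_119087 (FJU.256.C1) had the largest SD, 5.96. It stood at -1.76, -2.56 and 6.75 in stormwater livers 1, 3 and 4, at -5.39, 5.10 and -3.32 in streamwater livers 1 to 3, at 6.67, 7.65, 5.97 and 7.33 in wastewater livers and at -5.79, -6.47 and -6.43 in control livers, where it was not well above background. Every wastewater liver was bright and every control liver dark, and stormwater and streamwater each had 1 bright liver among 3. The probe was well above background in all 3 stormwater livers and in 1 of the 3 streamwater livers. It was also well above background on both arrays set aside, at -4.60 in stormwater liver 2 and -1.67 in streamwater liver 4. Of its sum of squares 72.5% lay between waters, the highest of the 100.

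UF_Ppr_AF_101592 came next with an SD of 4.89. It stood at -1.09, -1.46 and 4.64 in stormwater livers 1, 3 and 4, at -1.15, 6.07 and 7.64 in streamwater livers, at -1.50, 7.44, 6.94 and 7.05 in wastewater livers and at 3.05, -3.85 and -6.52 in control livers. All 4 waters held bright and dim livers, and its dimmest liver, control liver 3, was not well above background.

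UF_Ppr_AF_112433 (FJU.491.C1) was either very bright or dim in the 13 livers, with nothing between. It stood at 6.69, 6.96 and 6.98 in stormwater livers, at 6.26, -1.68 and -0.45 in streamwater livers, at 7.29, -0.07, -1.74 and -3.06 in wastewater livers and at 7.26, 7.26 and -4.17 in control livers. The 7 bright livers lay within 6.26 to 7.29, and the next lay 6.33 lower on the log2 scale. It was well above background in all 13 livers. In the arrays set aside it stood at 0.33 in stormwater liver 2, unlike the 3 other stormwater livers, and at -0.75 in streamwater liver 4.

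UF_Ppr_AF_115541 (FJU.8550.C1) was well above background in 7 livers and dark in 6. It stood at -6.61, 4.39 and 3.08 in stormwater livers, at -5.91, 2.48 and -4.86 in streamwater livers, at -4.56, -4.22, 2.74 and -5.38 in wastewater livers and at 1.72, 5.84 and 1.89 in control livers. All 3 controls were bright, and so was at least 1 liver of each effluent.

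UF_Ppr_AF_100566 was well above background in only 4 livers. It stood at 3.91 in stormwater liver 4, 3.40 in streamwater liver 3 and 4.08 in wastewater liver 3, which are the high livers of group C, to which it belongs, and at -3.83 in stormwater liver 3. The other 9 of the 13 were not well above background, all 3 controls among them.

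Of the 10 members of largest SD the remaining 3 were UF_Ppr_AF_109272, UF_Ppr_AF_108364 and UF_Ppr_AF_113872. UF_Ppr_AF_109272 stood between 2.91 and 5.18 in the 3 streamwater livers, at -6.44, -1.55 and 4.63 in stormwater livers, and ran between -2.65 and 3.63 in wastewater livers and between -6.65 and 4.20 in controls. UF_Ppr_AF_108364 lay between -4.46 and -2.94 in the 3 stormwater livers, and held bright and dim livers in each other water. UF_Ppr_AF_113872 stood between -3.43 and 4.82 in stormwater livers and between -3.90 and 4.54 in controls. In each of the 3, controls overlapped every effluent.

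**Figure D4:**
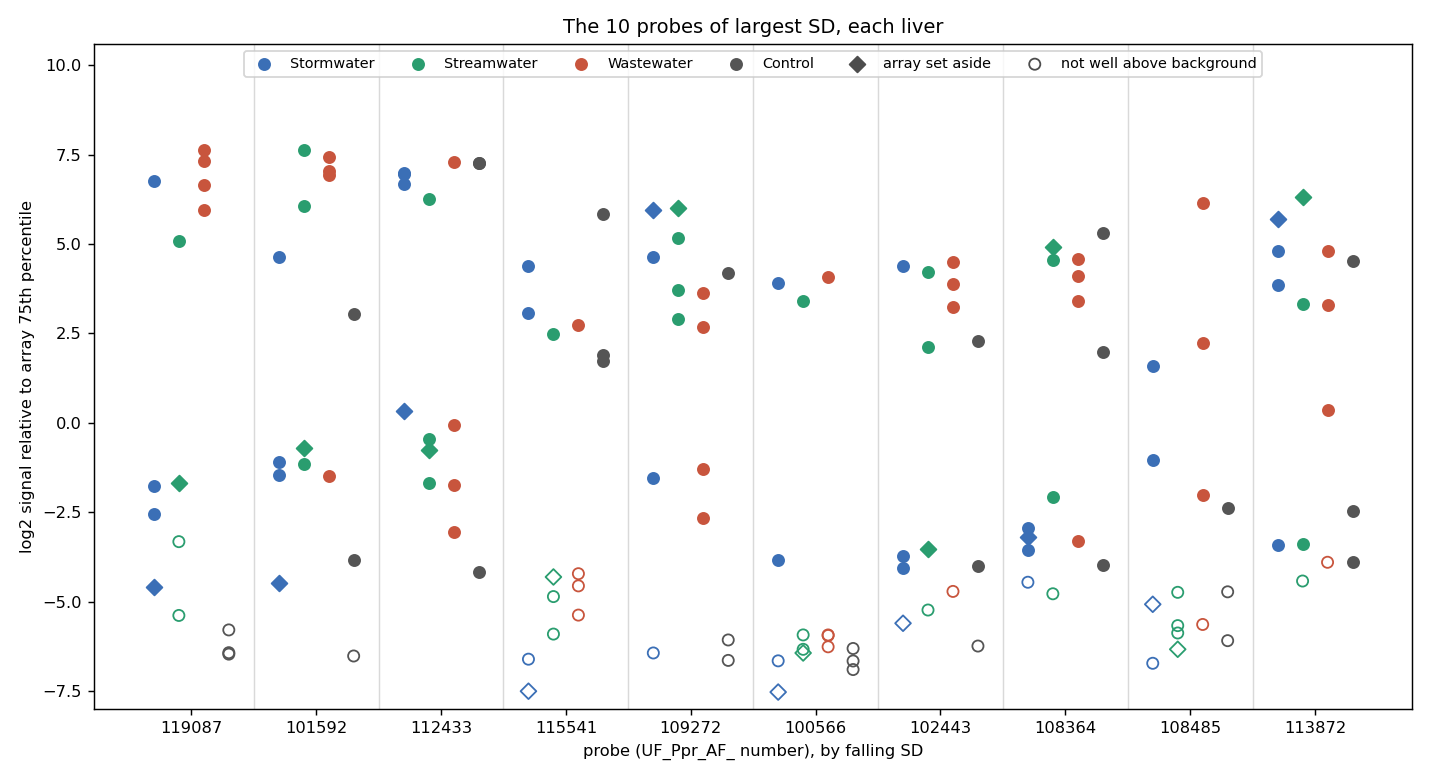
The 10 members of largest SD (horizontal axis) with the level of each of the 15 livers (points, log2 signal relative to the array's 75th percentile), coloured by water, diamonds for arrays set aside and open symbols for not well above background. UF_Ppr_AF_119087 is bright in all 4 wastewater livers and dark in all 3 controls, and in the others the waters overlap more.

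In 27 members the livers parted into a bright and a dim set with an empty gap of at least 16-fold between them. Among all 11088 ranked probes 50 had such a gap, and since a wide gap makes a large SD, the count is a description. In 14 of the 27 at least 2 livers lay on each side, in 8 a single liver lay above, and in 5 a single liver lay below. In 4 of those 8 the single high spot was flagged as non-uniform. The members named in this paragraph and the next were chosen after their values were seen. UF_Ppr_AF_102205 (FJU.2455.C1) lay between 0.03 and 1.14 in 10 livers and at -6.12, -5.93 and -5.90, not well above background, in stormwater liver 3, streamwater liver 2 and control liver 1. UF_Ppr_AF_103938 was at -6.27 in streamwater liver 2 and -6.17 in wastewater liver 1, and between -0.95 and 0.30 in the other 11. The dim livers of both came from different waters.

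Other members singled out 1 liver among the arrays not set aside. UF_Ppr_AF_112904 (FJU.3028.C1) was at -3.75, not well above background, in wastewater liver 4, and between 4.37 and 7.12 in the other 12. It was also below those 12 on the arrays set aside, at -0.78 in stormwater liver 2 and -0.88 in streamwater liver 4. UF_Ppr_AF_100887 was at -6.79, not well above background, in stormwater liver 3, and between 0.98 and 3.60 in the others. UF_Ppr_AF_104645 (FJU.7577.C1) was at 6.15 in streamwater liver 2, on a spot flagged as non-uniform, and between -3.70 and -0.89 in the others. Whether that level is of the fish or of the spot cannot be told apart. In these 3 members 1 liver carried 86.5%, 84.4% and 85.5% of the sum of squares. On the set-aside arrays UF_Ppr_AF_100887 (2.70 and 3.19) and UF_Ppr_AF_104645 (-2.79 and -3.66) lay within the range of their other livers.

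**Figure D5:**
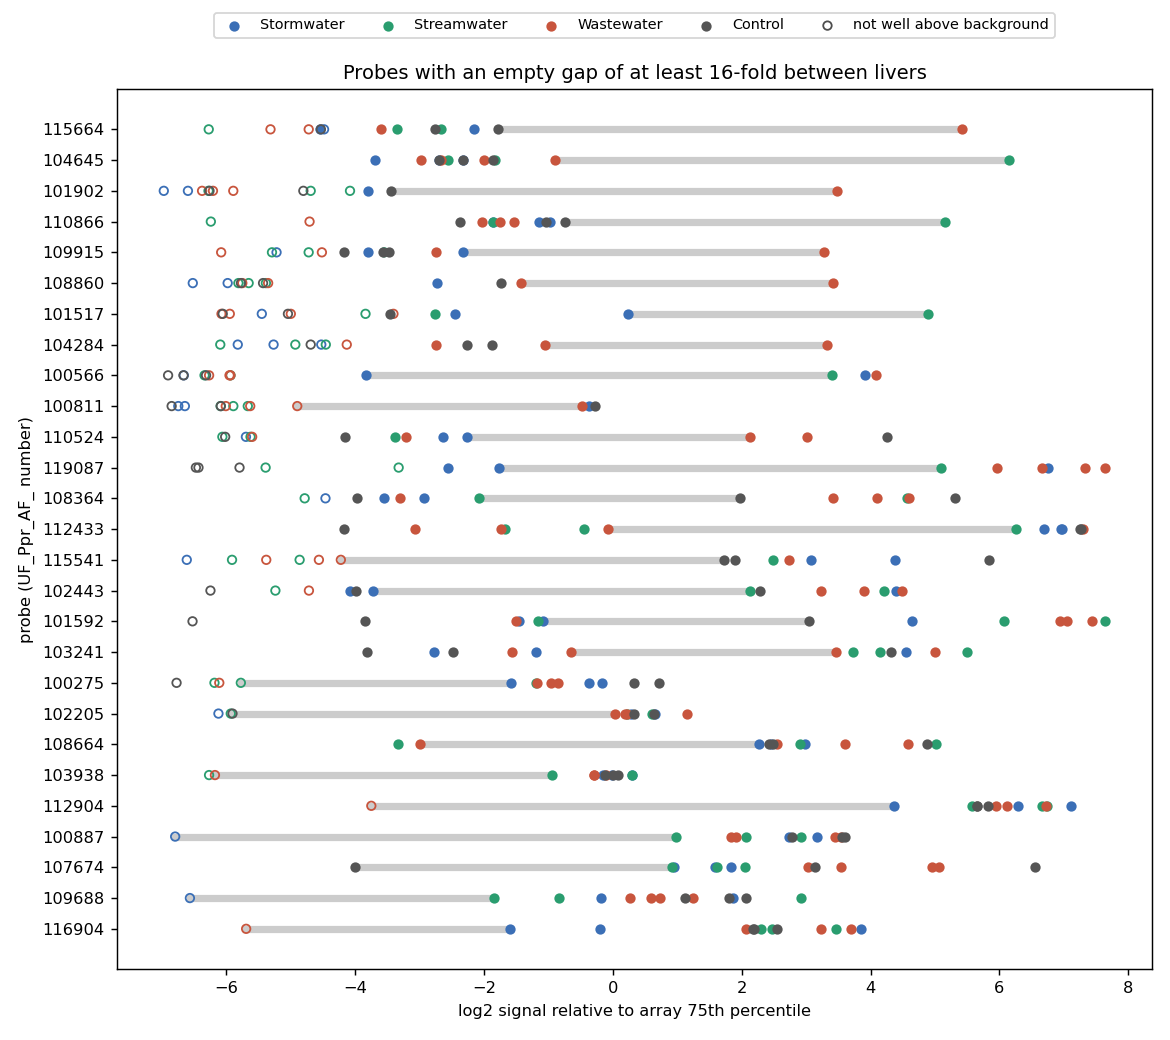
The 27 members with an empty gap of at least 16-fold (grey bar), 1 row each, with the level of the 13 livers as points (log2 signal relative to the array's 75th percentile) coloured by water, open where not well above background. Rows at the top have 1 liver above the gap, rows at the bottom 1 below, and in most rows between them each side holds livers of several waters.

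Some smaller sets also followed single livers or a mix of waters. They too were picked after their values were seen. UF_Ppr_AF_117187, UF_Ppr_AF_112102, UF_Ppr_AF_118031 and UF_Ppr_AM_119605 were highest in stormwater liver 1, at 2.66, 2.53, 0.98 and 1.23. UF_Ppr_AF_106174, UF_Ppr_AF_105417 and UF_Ppr_AF_109596 were highest in control liver 3, at 2.14, 3.04 and -0.35, with pairwise r of 0.778 to 0.960. UF_Ppr_AF_113172, UF_Ppr_AF_104250, UF_Ppr_AF_101763 and UF_Ppr_AF_117236 were low in streamwater liver 3, at -6.11, -3.33, -5.84 and -6.04, and also lower in wastewater than in stormwater livers without overlap.

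The water comparisons asked whether any member differed between waters beyond the spread among fish. limma was fitted to all 11288 probes with 1 mean per water, and p-values were adjusted by Benjamini and Hochberg over all of them. A member's large SD holds both the spread within waters and the spread between them, so the tests are not independent of the choice. No member passed at 0.05 in the test across the 4 waters or in any of the 6 pairs, and the share of all probes that passed was 0%. With all 15 arrays in the fit, 0 members passed as well. At an unadjusted p under 0.05, 11 members differed across waters, against 5.01% of all probes. limma draws each probe's variance towards that of the typical probe and so lowers it for members chosen for a large SD. With each probe's own variance, the count was 5 members, against 5.07% of all probes.

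Stormwater against control had 7 members with an unadjusted p under 0.05 (background 7.38%), or 5 with each probe's own variance (background 7.61%). In 9 members the 3 stormwater livers did not overlap the 3 controls, where the background was 15.8%. Of these, 6 lay above the controls (background 5.26%) and 3 below (background 10.5%). The members' median log2 fold change was 0.42, against -0.19 over all probes tested. UF_Ppr_AF_109476 (FJU.13734.C1) had the lowest p. It stood at -0.57, 1.75 and -1.62 in stormwater livers and at -6.16, -6.75 and -6.69 in controls, where none was well above background, so that it was at least 20.2-fold higher (limma log2 fold change 6.39, SE 1.51, adjusted p = 0.559). In such a bound the dim water's signal on an array was raised, where it was lower, to the dimmest signal that was still well above background there, and the means of both waters were then compared. The set-aside stormwater liver 2 had -7.43, below all controls. Streamwater livers 1 to 3 had -2.02, -0.94 and -0.03, all well above background. Wastewater livers 1 to 4 had -6.03, -0.59, 1.28 and -3.75, of which livers 2 and 3 were well above background. A level above the controls was thus not particular to stormwater in this probe.

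Streamwater against control had 7 members with an unadjusted p under 0.05 (background 4.23%), or 5 with each probe's own variance (background 4.34%). In 9 members the groups did not overlap (background 9.14%), with 4 above (background 3.24%) and 5 below (background 5.9%). The median log2 fold change was -0.48, against -0.02 over all probes. UF_Ppr_AF_100352 (FJU.579.C1) had the lowest p. It stood at -4.34, -3.69 and -4.86 in streamwater livers, of which liver 2 was well above background, and at -2.43, 2.69 and 1.72 in controls (limma log2 fold change -4.96, SE 1.13, adjusted p = 1.00). The 2 high controls lay on slide 2 and the lower one on slide 1. Stormwater livers 1, 3 and 4 had -2.67, -4.76 and -3.91, also below all controls. Wastewater livers 1 to 4 had -1.87, -2.47, -4.47 and -3.75. A level below the controls was thus not particular to streamwater in this probe.

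Wastewater against control had 12 members with an unadjusted p under 0.05 (background 4.48%), or 8 with each probe's own variance (background 4.12%). In 8 members the groups did not overlap (background 6.09%), with 4 above (background 2.21%) and 4 below (background 3.87%). The median log2 fold change was -0.04, against -0.11 over all probes. UF_Ppr_AF_119087 had the lowest p and was at least 2683-fold higher after wastewater (limma log2 fold change 13.13, SE 2.41, adjusted p = 0.598), at 6.90 ± 0.74 in wastewater livers (SD, n = 4) and -6.23 ± 0.38 in controls (SD, n = 3). Its SD was 5.16 within stormwater and 5.56 within streamwater, and these enter the error of the fit. In a fit to wastewater and control arrays alone it passed (limma adjusted p = 2.38e-05), as did UF_Ppr_AF_118982 (adjusted p = 0.0208), and the adjusted p of UF_Ppr_AF_119087 over all settings ran between 2.38e-05 and 1.00. UF_Ppr_AF_118982 (FJU.4145.C1), named after its values were seen, stood at 2.45, 3.51, 3.28 and 3.85 in wastewater livers. Controls had -1.15, -0.68 and -1.80, without overlap. It stood at -1.07, -3.88 and 3.21 in stormwater livers 1, 3 and 4, and at 2.19, -2.84 and -0.39 in streamwater livers 1 to 3. On the arrays set aside it had -5.54 in stormwater liver 2 and -5.36 in streamwater liver 4. Neither was well above background, and both lay below all 13.

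Stormwater against wastewater had 10 members with an unadjusted p under 0.05 (background 5.71%), or 7 with each probe's own variance (background 5.8%). In 8 members the groups did not overlap (background 7.63%), with 5 above (background 4.35%) and 3 below (background 3.28%). The median log2 fold change was 0.40, against -0.11 over all probes. UF_Ppr_AF_113172 (FJU.8123.C2) stood at -0.95, 0.15 and -0.59 in stormwater livers and at -4.27, -6.14, -6.29 and -5.80 in wastewater livers, none of them well above background. After stormwater it was thus at least 11.4-fold higher (limma log2 fold change 5.16, SE 1.12, adjusted p = 0.471). Streamwater livers 1, 2 and 3 had -1.45, 0.13 and -6.11, and controls lay between -1.73 and -0.77. Without streamwater liver 3 the probe passed (limma adjusted p = 0.0192), and over all settings its adjusted p ran between 0.0192 and 0.839. The 2 arrays set aside had 0.17 in stormwater liver 2 and 1.28 in streamwater liver 4.

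Streamwater against wastewater had 9 members with an unadjusted p under 0.05 (background 4.26%), or 4 with each probe's own variance (background 4.59%). In 6 members the groups did not overlap (background 5.47%), with 0 above (background 1.88%) and 6 below in streamwater (background 3.6%). The median log2 fold change was -0.07, against 0.08 over all probes. The lowest p belonged to UF_Ppr_AF_119087 (limma log2 fold change -8.11, SE 2.41, adjusted p = 0.985). Its streamwater values, above, include 1 bright liver at 5.10, below the lowest wastewater liver at 5.97.

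Stormwater against streamwater had 3 members with an unadjusted p under 0.05 (background 4.7%), or 1 with each probe's own variance (background 5.01%). In 3 members the groups did not overlap (background 9.2%), with 2 above (background 3.13%) and 1 below (background 6.08%). The median log2 fold change was 0.65, against -0.12 over all probes. UF_Ppr_AF_117124 (FJU.2445.C1) stood at -0.26, 0.85 and -3.01 in stormwater livers and at -5.52, -5.88 and -4.00, none well above background, in streamwater livers. After stormwater it was thus at least 8.57-fold higher (limma log2 fold change 4.33, SE 1.32, adjusted p = 0.839), while the set-aside stormwater liver 2 had -7.05. UF_Ppr_AF_117124 had -2.99, -1.61 and -6.44 in control livers 1 to 3, and -3.69, -5.87, -6.03 and -2.69 in wastewater livers 1 to 4. Both waters thus overlapped stormwater. Comparisons that share a water share its livers, so their counts are not independent of each other.

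A difference between waters could turn its sign from slide to slide. Each liver lay on 1 slide, so slide and fish cannot be told apart here. Stormwater minus control, taken within each slide, had opposite signs on the 2 slides in 57 members, against 36.7% of all probes tested. In 13 members the difference exceeded 4-fold on each slide, in opposite directions, against 0.221% of all probes, where a large SD favours such a difference. UF_Ppr_AF_105863 (FJU.542.C1), named after its values were seen, stood at 4.52 in stormwater liver 1 and -3.37 in control liver 1 on slide 1. On slide 2 it stood at -3.38 and -3.35 in stormwater livers 3 and 4 and at 2.97 and 3.43 in control livers 2 and 3. Slide 1 held 1 stormwater and 1 control liver of the 13, so a difference there rests on 2 fish. Over both slides its log2 fold change was -1.75 (SE 2.18, limma adjusted p = 0.825).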

How the data were processed

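Livers of 15 male fish were profiled on one-colour arrays. Per the file headers, Agilent Feature Extraction 10.1.1.1 wrote the spot intensities, of which the background-subtracted one was used (the submitters' processing notes give version 9.5). The authors' deposited value table is on a log2 scale and served as an alternative.

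Per array, log2 signals were set relative to their 75th percentile over 15208 non-control probes. All spots entered the choice of members, and outlier-flagged spots were missing in the fits (limma 3.58.1 in R 4.3.3, lmFit and eBayes, two-sided, 9 residual and 2.79 prior degrees of freedom). Members, lists and tests were chosen with earlier results of these data known. Named probes are the 10 of largest SD, per group the 3 most like its mean and the 1 of largest SD, the lowest p per comparison, and 3 on each side of the SD limit. Other probes named are all those that met a condition stated with them, or are marked as picked after their values were seen. The gene lists and cell type markers could not be applied, because 0 members matched the reference table. Fitting and grouping were tested on simulated data. Alternatives were normalization, background, filters, slide and replicate blocks, variance estimates, linkage and leaving out each array. Figures were drawn with matplotlib 3.10.9.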

Additional observations from a re-analysis of the deposited data

Results flagged for a closer look

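In the 4 wastewater livers, 1 liver stood far from the other 3 in 16 of the 100 members, by Dixon's test at its critical value of 0.829 for 4 values, against 6.23% of all 11288 probes tested. Chance marks about 1 in 20 groups, and members chosen for a large SD are more likely to be marked. Groups of 3 were not tested. Among the probes named by rule there were 6. UF_Ppr_AF_115664 stood at 5.42 in wastewater liver 2, on a spot marked non-uniform, and UF_Ppr_AF_108364 at -3.30 in wastewater liver 2, the lowest of the 4. UF_Ppr_AF_100566 and UF_Ppr_AF_115541 were highest in wastewater liver 3, at 4.08 and 2.74. UF_Ppr_AF_102443 and UF_Ppr_AF_101592 were lowest in wastewater liver 1, at -4.72 and -1.50.

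The 2 arrays set aside took no part in the choice of members. Since the members were chosen for a wide spread over the 13, values within that range are favoured. In stormwater liver 2, 11 members lay above all 13 arrays, 23 below and 66 within their range, where 21.3% of all probes tested lay above and 17.6% below. In streamwater liver 4, 15 lay above, 10 below and 75 within, where 21.4% of all probes lay above and 22.8% below. Of those below, 22 and 8 were not well above background. On both arrays 9 members lay above and 6 below, against 14.5% and 13% of all probes. UF_Ppr_AF_117737, named after its values were seen, stood at -3.00 in stormwater liver 2 and -2.37 in streamwater liver 4. Both lay below the lowest of the 13 at 0.63, a control liver. What sets these arrays apart was not tested here.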

How the results depend on the processing

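Several settings changed which probes were chosen. Of the 100, 20 remained when probes had to be well above background on all 13 arrays, 42 with the SD over all 15 arrays and 46 with the median absolute deviation. Leaving out each array in turn kept 89 to 97, and 52 members were kept every time. The number of co-varying groups was 2 when joined below 0.3, 8 below 0.7, 1 with complete linkage, and 3 to 6 without each array in turn. Of the 17 members of group A, 16 or 17 stayed together in each of these. The median share between waters was 18.3% to 25.4% without each array in turn, against 23.0% to 29.0% over all probes tested, the higher value in every such setting.

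The counts of members that passed were 0 except as follows. Without streamwater replicate 3, 1 member (UF_Ppr_AF_113172) passed across waters, in wastewater against control, and in stormwater and streamwater against wastewater, so that leaving out each array in turn gave 0 to 1 there. Of all 11288 probes tested, 4, 2, 2 and 5 passed in these comparisons, in the same order. With only the groups compared, 2 passed in wastewater against control and 1 in stormwater against wastewater. Of all 11288 probes tested, 4 and 9 passed there. Within slide 1, stormwater against control compared 1 liver of each water, so no count is given. The log2 fold change of UF_Ppr_AF_105863 there was 7.89. Within slide 2, 2 passed in stormwater against control, 1 in wastewater against control and 1 in stormwater against wastewater. Of all 11288 probes tested, 2, 1 and 1 passed there. Within-slide fits, fits without moderation and several group settings were chosen after seeing the data. The causes were not tested. With the replicate number as a block, 0 members passed in each comparison. The labels do not say whether the numbers pair the livers. Same-numbered livers correlated at -0.04 to 0.30 in their deviations, and 8 of 16 such pairs exceeded 0.1. Livers of different numbers, from different waters, correlated at -0.01 to 0.43 where they shared a slide. Where they did not, they correlated at -0.42 to 0.05. Most same-numbered pairs also shared a slide, so these values cannot decide whether the numbers pair fish. Levels of probes not well above background have no order among themselves, which limits ranges and gaps that end there.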
